A study of Homo sapiens with 6 samples.

Results

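Chemokine and interleukin genes were followed in a mutant derivative of HCT116 and in its parental line. HCT116 is an established human colorectal carcinoma cell line. The members were chosen by a symbol rule, with earlier results of these data known. The rule took CCL, CXCL or XCL with a digit, CX3CL1, and IL with a number and at most 1 letter from A to F. Receptors were left out. This gave 74 of the 18417 genes that had a probe set with exactly 1 symbol, 37 chemokines and 37 interleukins, each represented by its probe set with the highest mean over the 6 arrays. RNA of 3 mutant arrays, labelled only as an HCT116 derivative with altered DNA methylation, was set against RNA of 3 parental arrays. The mutated gene is not named in the labels, and all cells grew in McCoy's 5A medium with serum and antibiotics, with no other agent given. The labels leave unsaid whether each array had its own culture and whether the mutant line is more than 1 clone, so p-values measure the spread between these arrays, which may be technical.

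Chemokines are small secreted proteins that attract leukocytes through G protein-coupled receptors, and they are grouped by the spacing of their first cysteines into CXC, CC, XC and CX3C types. Interleukins are secreted signals between leukocytes, epithelium and stroma. Most need induction by NF-kB, STAT or interferon regulatory factors, whereas IL-18 is stored as an inactive precursor in resting intestinal epithelium and released after cleavage by inflammatory caspases. CXCL10, CXCL11 and CCL5 are known interferon- and NF-kB-inducible attractants of T cells.

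The values are log2 expression after robust multi-array average (RMA), which makes the arrays' distributions alike and compresses differences of dim probe sets. Array medians ran from 6.88 to 6.93, and arrays correlated across probe sets at 0.995 to 0.996 within a line and 0.988 to 0.989 between lines. The epithelial marker EPCAM stood at 12.33 ± 0.06 in mutant arrays and 12.15 ± 0.03 in parental arrays (mean log2 ± SD, n = 3 each). The leukocyte marker PTPRC stood at 3.73 ± 0.06 in mutant arrays and 3.72 ± 0.17 in parental arrays. Of 12 colon epithelium markers 4 were lower in the mutant and 0 higher, or 33.3% called against 25.9% of all genes and 36.5% of those whose mean log2 was 7 or more, with a log2 summed level of 14.34 to 14.41 in mutant and 14.81 to 14.86 in parental arrays. The 4 were CDH1 (log2 change -1.36), KRT18 (-0.88), KRT8 (-0.53) and KRT19 (-0.47). EPCAM was 0.18 higher in the mutant and did not pass (limma adjusted p = 0.0715). Of 13 measured leukocyte markers 0 passed limma's test, with 1 at an unadjusted p under 0.05. Their log2 summed level was 10.14 to 10.27 in mutant and 10.10 to 10.17 in parental arrays. Of the 13, 11 had a mean log2 under 7, and 9.52% of all genes that dim were called. The brightest was CD68, at 9.33 in mutant and 9.19 in parental arrays. The part of these shifts in the results below was not tested.

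Of the 74 genes, 5 differed between the lines at an adjusted p under 0.05 (limma, Benjamini-Hochberg over all 33297 probe sets). CCL5, CXCL10 and CXCL11 were higher in the mutant, and IL18 and IL32 were lower. These 5 are 6.76% of the members, where 25.9% of all genes were called, 14.6% higher and 11.3% lower. All 5 moved by at least 1.5-fold, a size that 7.22% of all genes reached with a call. The median change over the 74 was -0.04 on the log2 scale, against 0.00 over all genes.

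**Figure D1:**
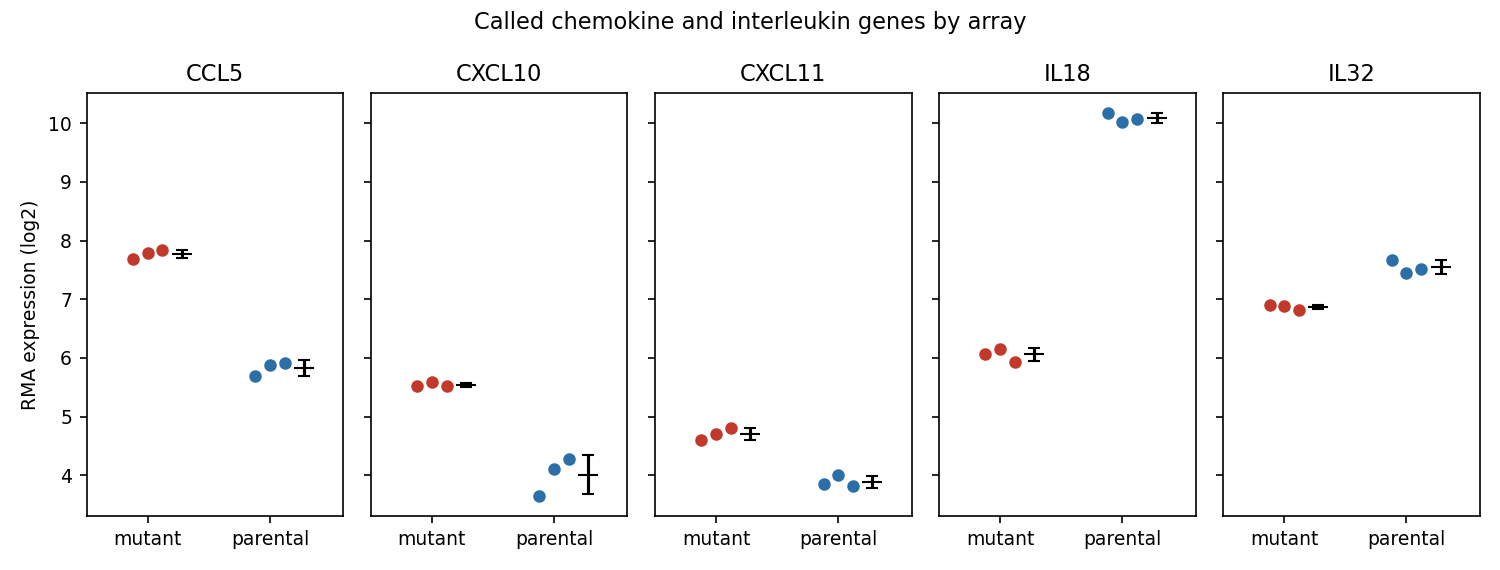
RMA expression (log2, vertical axis) of the 5 called genes in the 3 mutant arrays (red, left) and the 3 parental arrays (blue, right); black marks give the mean and SD. The arrays of the lines do not overlap for any of these genes, and IL18 shows the widest gap, with mutant arrays near 6 and parental arrays near 10.

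Promoter sequence is shown for the called genes that have an entry in the RefSeq promoter table (build GRCh38.p14), which held CXCL10, CXCL11 and IL32 of the 5. CXCL9, which lies beside CXCL10 and CXCL11 and was not called, is printed for comparison and was picked after its values were seen. Each sequence is the 250 bases before the gene's start, 5′ to 3′ on the gene's strand, with capitals marking matches to the kB decamer (GGG, any 5 bases, CC), the interferon-stimulated response element core (GAAA, any 2 bases, GAAA), or TATAAA, searched on both strands. Matches to the decamer can overlap each other. CXCL10 is chr4:76023498-76023747 (minus strand), CXCL11 chr4:76036071-76036320 (minus), CXCL9 chr4:76007510-76007759 (minus) and IL32 chr16:3065153-3065402 (plus).
CXCL10: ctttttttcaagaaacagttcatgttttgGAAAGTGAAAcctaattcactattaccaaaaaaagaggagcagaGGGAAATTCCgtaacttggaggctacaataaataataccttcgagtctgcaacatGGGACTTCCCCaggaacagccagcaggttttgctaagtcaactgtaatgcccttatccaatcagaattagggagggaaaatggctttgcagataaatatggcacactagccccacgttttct
CXCL11: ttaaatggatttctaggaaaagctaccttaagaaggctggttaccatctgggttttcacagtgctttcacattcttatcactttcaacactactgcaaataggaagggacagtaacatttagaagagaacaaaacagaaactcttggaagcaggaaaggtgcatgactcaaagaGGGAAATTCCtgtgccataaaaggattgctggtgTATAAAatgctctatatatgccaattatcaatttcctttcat
CXCL9: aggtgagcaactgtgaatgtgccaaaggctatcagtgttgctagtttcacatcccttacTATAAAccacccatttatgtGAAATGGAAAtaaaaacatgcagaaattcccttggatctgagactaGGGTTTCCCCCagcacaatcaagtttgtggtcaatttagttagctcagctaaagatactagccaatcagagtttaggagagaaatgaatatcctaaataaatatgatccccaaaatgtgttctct
IL32: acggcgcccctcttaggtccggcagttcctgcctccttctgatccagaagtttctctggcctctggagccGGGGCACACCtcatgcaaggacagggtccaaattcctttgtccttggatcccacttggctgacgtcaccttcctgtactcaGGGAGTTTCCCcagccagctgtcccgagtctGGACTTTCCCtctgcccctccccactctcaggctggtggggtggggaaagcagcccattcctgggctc

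The same 10 letters, GGGAAATTCC, stand in the CXCL10 window from base -177 to -168 and in the CXCL11 window from base -76 to -67, counted back from the start. The response element core is matched in the CXCL10 window from base -221 to -212 and in the CXCL9 window from base -171 to -162, and not in the CXCL11 window. The 250 bases hold 3 CG pairs for CXCL10, 0 for CXCL11, 0 for CXCL9 and 6 for IL32. CG pairs are the sites of DNA methylation in these cells, which the labels name as altered in the mutant; methylation itself was not analysed here.

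Promoter windows of 300 bases, reaching 50 bases past the start, were found for 53 of the 74 members and for 27305 genes in all. Member windows had a median of 4 CG pairs (range 0 to 39), against 14 over all windows (range 0 to 77). The 3 members with the most pairs were CXCL12, with 39, IL13, with 37, and CXCL14, with 31, and 0 of these genes were called. All 3 had a mean log2 under 7, and 9.52% of all genes that dim were called. A link between CG pairs and calls was not tested. TATAAA was in 19 of the 53 member windows, or 35.8%, against 12% of all windows. The response element core was in 6, or 11.3%, against 3.65%, and the decamer in 27, or 50.9%, against 58.0%. A decamer match is therefore ordinary in windows of this length. These matches describe the letters and not the binding of a factor.

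Among chemokines, the largest difference was that of CCL5, which attracts T cells, monocytes and eosinophils. CCL5 read 7.69, 7.79 and 7.84 in mutant arrays, against 5.69, 5.88 and 5.92 in parental arrays. Every mutant array lay above every parental array. The difference was 1.94 ± 0.08 on the log2 scale (SE, 95% interval 1.75 to 2.14), a 3.84-fold increase with a limma adjusted p of 6.81e-05. Parental values lay below the array medians, where RMA compresses differences, so this fold may understate the change. In bulk RNA, more transcript per cell cannot be told apart from more cells that make it.

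CCL5 lies on chromosome 17, which carries 11 of the CCL members. The other 10 (CCL1, CCL2, CCL3, CCL4, CCL7, CCL8, CCL11, CCL16, CCL18 and CCL23) had changes of -0.19 to 0.10 and overlapping arrays, with 0 called by limma and 0 at an unadjusted p under 0.05. All 10 had a mean log2 under 7, and 9.52% of all genes that dim were called. CCL2, the main monocyte attractant, read 5.40, 5.43 and 5.59 in mutant arrays, against 5.61, 5.38 and 5.60 in parental arrays. Probes of CCL3 and CCL4 can be shared with near-identical copies of these genes, so their values are uncertain, and 8 probe sets that carry several symbols were left out. In the RefSeq order, the nearest 10 genes on each side of CCL5 with a mean log2 of at least 7 were read. These 20 had a median change of 0.01 (range -0.33 to 0.71), with 3 higher and 2 lower. Of all genes that bright, 36.5% were called.

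The remaining CC, XC and CX3C members were also not called. Over all 22 uncalled genes of this class, changes ran from -0.25 (CCL20) to 0.18 (CCL28), with a median of -0.05. Of these 22, 20 had a mean log2 under 7, and 9.52% of all genes that dim were called. CCL28, a mucosal chemokine that attracts plasma cells, read 4.98, 4.83 and 4.80 in mutant arrays, against 4.52, 4.78 and 4.78 in parental arrays. Its arrays did not overlap, as in 45.8% of all genes, and its adjusted p was 0.279. CCL20, which attracts CCR6-bearing cells to mucosa, read 4.54, 4.04 and 4.27 in mutant arrays, against 4.48, 4.66 and 4.46 in parental arrays, and 1 mutant array lay within the parental range. XCL1 has another probe set, which gave 0.15 (adjusted p = 0.658) where the brighter gave -0.15 (adjusted p = 0.567).

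The members of this class with a mean log2 of at least 7, about the array median, were CCL17 and CX3CL1. CCL17, a ligand of CCR4, read 7.36, 7.37 and 7.21 in mutant arrays, against 7.59, 7.32 and 7.34 in parental arrays (adjusted p = 0.547). CX3CL1, a membrane-bound chemokine that also serves adhesion, read 6.92, 6.96 and 7.11 in mutant arrays, against 7.19, 7.05 and 7.16 in parental arrays (adjusted p = 0.293). Both pairs of groups overlapped.

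CXCL9, CXCL10 and CXCL11 share the receptor CXCR3 of activated T cells and lie close together on chromosome 4. CXCL10 read 5.52, 5.59 and 5.52 in mutant arrays, against 3.64, 4.10 and 4.28 in parental arrays. The parental arrays spread more, with an SD of 0.33 against 0.04 in the mutant, yet the groups did not overlap. The difference was 1.54 ± 0.16 (log2 ± SE, 95% interval 1.15 to 1.92; adjusted p = 0.00163), or 2.90-fold. CXCL11 read 4.61, 4.70 and 4.81 in mutant arrays, against 3.85, 4.01 and 3.82 in parental arrays, a difference of 0.81 ± 0.08 (95% interval 0.62 to 1.01; adjusted p = 0.00135). CXCL9 read 4.18, 4.06 and 4.28 in mutant arrays, against 4.18, 4.47 and 4.36 in parental arrays, and these overlapped (difference -0.17, 95% interval -0.39 to 0.06; adjusted p = 0.320).

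All 3 genes were dim in both lines, so RMA compresses their differences and the fitted folds of CXCL10 and CXCL11 may understate the change. The difference between the changes of CXCL9 and of its neighbours was not tested. On chromosome 4, the nearest 10 genes on each side of CXCL10 and CXCL11 with a mean log2 of at least 7 were read. These 20 had a median change of -0.03 but a range of -6.47 to 0.51, with 4 higher and 5 lower. Of all genes that bright, 36.5% were called. The receptor gene CXCR3, looked up after these values were seen, was at 6.91 ± 0.13 in mutant arrays and 7.01 ± 0.11 in parental arrays (adjusted p = 0.528).

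The chemokines that attract neutrophils through CXCR1 and CXCR2, also on chromosome 4, were not called. Their 6 changes ran from -0.19 to 0.01, with a median of -0.08. All 6 had a mean log2 under 7, and 9.52% of all genes that dim were called. CXCL1 read 6.27, 6.27 and 6.37 in mutant arrays, against 6.46, 6.44 and 6.57 in parental arrays. Its groups did not overlap, as in 45.8% of all genes. Its change of -0.19 ± 0.06 had an adjusted p of 0.0856, and 0.0418 when only probe sets with 1 symbol were tested. CXCL8, the best known neutrophil attractant and an NF-kB target, read 6.10, 6.10 and 6.33 in mutant arrays, against 6.28, 6.17 and 6.18 in parental arrays. Its groups overlapped, and the 95% interval of its change was -0.23 to 0.16. CXCL2, CXCL3, CXCL5 and CXCL6 overlapped as well.

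Of the 5 other CXC chemokines, CXCL16 had a mean log2 of at least 7, at 10.19. The other 4 had a mean log2 under 7, and 9.52% of all genes that dim were called. CXCL16 is a membrane-anchored ligand of CXCR6 and a scavenger receptor. It read 10.19, 10.24 and 10.29 in mutant arrays, against 10.15, 10.13 and 10.16 in parental arrays. The groups did not overlap, but the difference of 0.09 ± 0.05 did not pass (adjusted p = 0.285). CXCL12, the ligand of CXCR4, read 5.03, 4.92 and 4.99 in mutant arrays, against 5.09, 5.19 and 5.22 in parental arrays, again without overlap. Its change of -0.19 ± 0.06 had an adjusted p of 0.0861, and 0.0421 when only probe sets with 1 symbol were tested. CXCL13 (-0.32), CXCL14 (-0.06) and CXCL17 (0.02) had overlapping arrays.

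**Figure D2:**
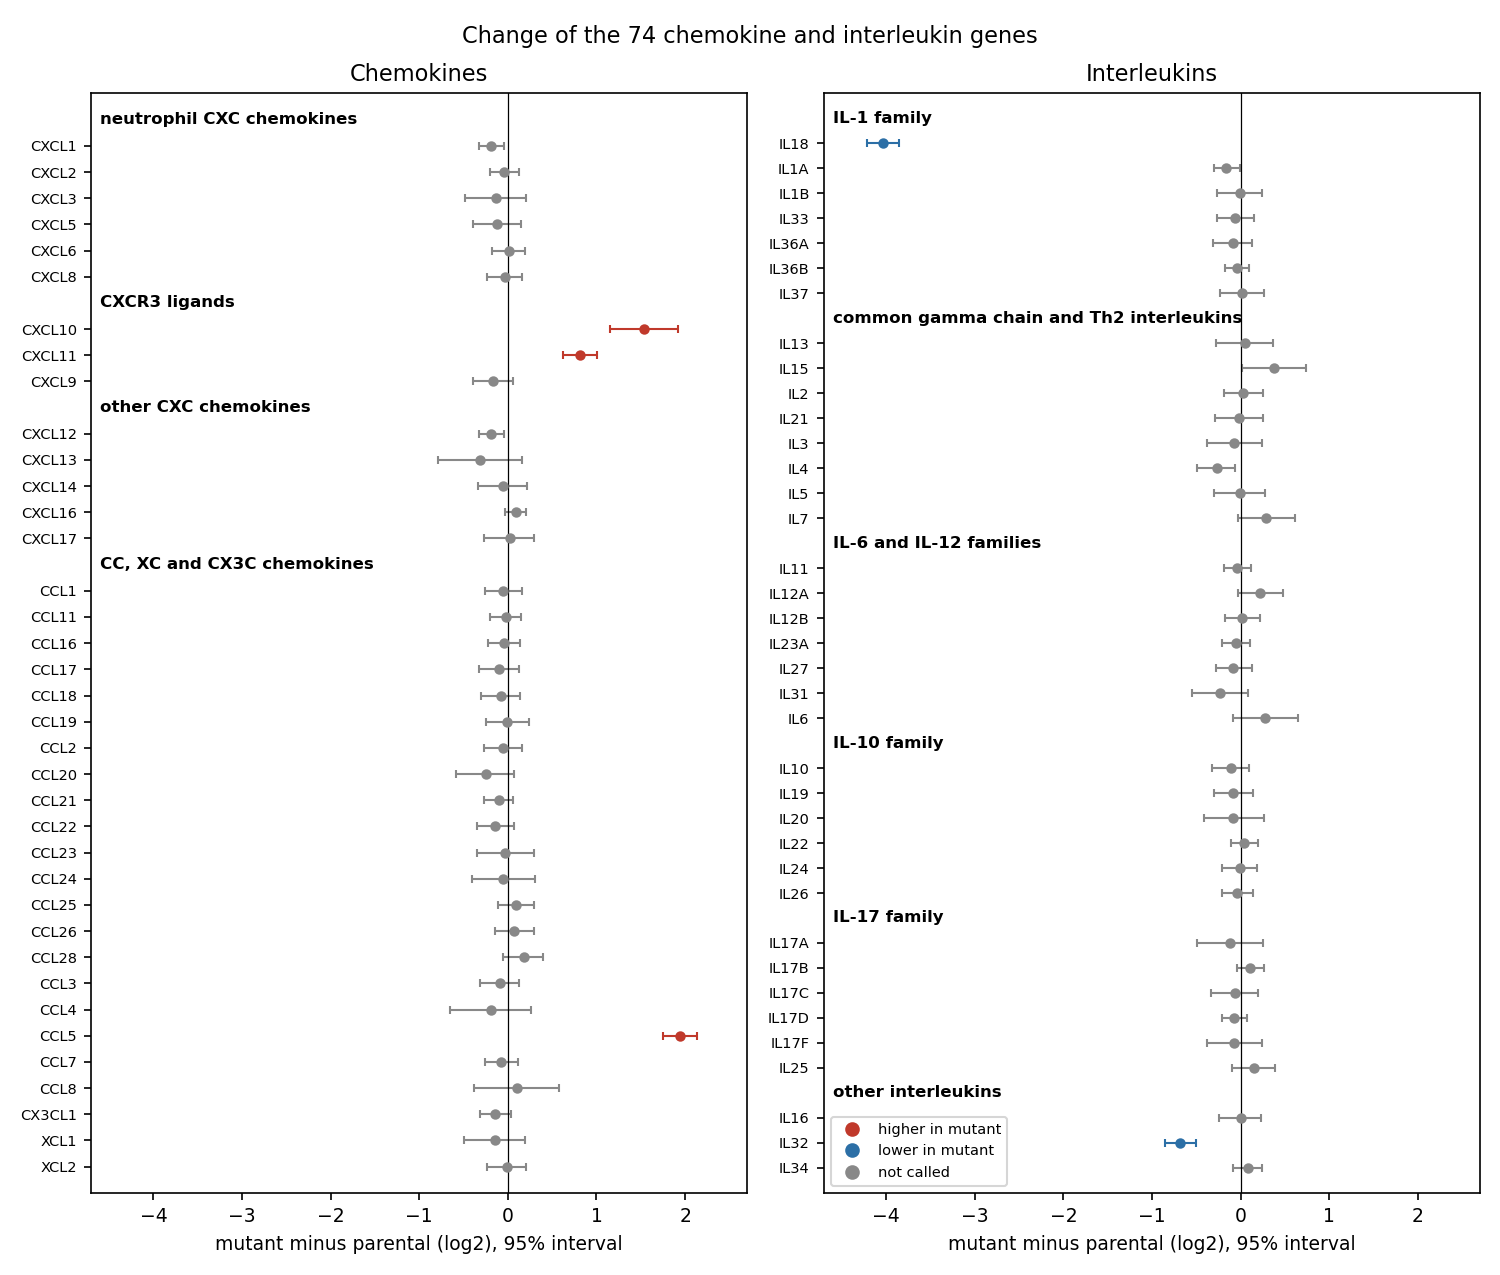
Mutant minus parental difference (log2, horizontal axis) of each of the 74 genes with its 95% interval, chemokines on the left and interleukins on the right, grouped by role. CCL5, CXCL10 and CXCL11 (red) lie right of 0, IL18 and IL32 (blue) lie left of it, and the 69 grey genes stay between -0.32 and 0.38.

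Among interleukins, IL18 had the largest difference of all 74 members. IL-18 is a cytokine of the IL-1 family that induces interferon gamma in lymphocytes and is made by intestinal epithelium. IL18 read 6.06, 6.16 and 5.94 in mutant arrays, against 10.18, 10.02 and 10.07 in parental arrays. The gap between the groups was many times the spread within either, with SDs of 0.11 and 0.08. The change of -4.03 ± 0.08 (log2 ± SE, 95% interval -4.22 to -3.85) is a 16.4-fold decrease with a limma adjusted p of 5.07e-06. Mutant values lay below the array medians, where RMA compresses differences, so this fold may understate the change. On chromosome 11, the nearest 10 genes on each side with a mean log2 of at least 7 had a median change of 0.18. Of these 20, 5 were higher and 0 lower. Of all genes that bright, 36.5% were called.

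The other 6 measured genes of the IL-1 family were not called, with changes of -0.16 to 0.02. All 6 had a mean log2 under 7, and 9.52% of all genes that dim were called. IL1A, an alarmin of damaged epithelium, read 4.95, 5.00 and 4.83 in mutant arrays, against 5.07, 5.08 and 5.11 in parental arrays (adjusted p = 0.143), without overlap. IL1B, which like IL-18 is made as a precursor, read 4.49, 4.63 and 4.48 in mutant arrays, against 4.49, 4.39 and 4.74 in parental arrays, and these overlapped. IL33 (-0.06), IL36A (-0.09), IL36B (-0.04) and IL37 (0.02) had adjusted p-values of 0.615 to 0.937. The 5 interleukins of chromosome 2, where the IL-1 cluster lies, had 95% intervals within 0.31 of no change.

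IL32, an intracellular and secreted proinflammatory protein, was the other decrease. It read 6.91, 6.88 and 6.82 in mutant arrays, against 7.67, 7.45 and 7.52 in parental arrays. The groups were apart by more than the spread of either, and the change was -0.68 ± 0.07 (95% interval -0.85 to -0.50; adjusted p = 0.00175), a 1.6-fold decrease. On chromosome 16, the nearest 10 genes on each side with a mean log2 of at least 7 had a median change of 0.07. Of these 20, 5 were higher and 2 lower. Of all genes that bright, 36.5% were called. IL34, a ligand of the CSF1 receptor, read 7.34, 7.16 and 7.22 in mutant arrays, against 7.22, 7.11 and 7.16 in parental arrays (adjusted p = 0.524). IL16, an attractant of CD4+ cells, changed by less than 0.01 (adjusted p = 0.986).

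Interleukins that signal through the common gamma chain, together with IL3, IL5 and IL13, had 0 of 8 called, with 2 at an unadjusted limma p under 0.05. The 2 were IL15 and IL4. All 8 had a mean log2 under 7, and 9.52% of all genes that dim were called. IL15, which sustains NK cells and memory T cells, read 4.90, 5.27 and 4.84 in mutant arrays, against 4.40, 4.75 and 4.72 in parental arrays. Its arrays did not overlap, and the difference of 0.38 ± 0.15 had an adjusted p of 0.144. IL4, the defining Th2 cytokine, read 4.54, 4.28 and 4.41 in mutant arrays, against 4.79, 4.62 and 4.64 in parental arrays (adjusted p = 0.0844, and 0.0372 over probe sets with 1 symbol). IL7, a survival factor of lymphocytes, had a difference of 0.29 (adjusted p = 0.212), which passed without parental replicate 3 (0.42, adjusted p = 0.0392). IL2, IL3, IL5, IL13 and IL21 stayed between -0.07 and 0.05.

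The IL-6 and IL-12 families had 0 of 7 called by limma, and 0 at an unadjusted p under 0.05. Over all 18417 genes 25.9% were called, and 7106 had an unadjusted p under 0.05. Of the 7, 4 had a mean log2 under 7, and 9.52% of all genes that dim were called. IL6, a product of NF-kB signalling, read 4.70, 5.17 and 5.11 in mutant arrays, against 4.75, 4.87 and 4.52 in parental arrays, which overlapped (adjusted p = 0.295). IL11, which signals through the same gp130 chain as IL-6, read 7.01, 7.07 and 7.20 in mutant arrays, against 7.10, 7.14 and 7.16 in parental arrays. IL23A, the p19 subunit of IL-23, read 7.06, 6.93 and 7.14 in mutant arrays, against 7.11, 7.08 and 7.10 in parental arrays. All of these groups overlapped. IL27, a subunit of the heterodimer IL-27, read 6.83, 7.0 and 7.10 in mutant arrays, against 7.03, 7.0 and 7.13 in parental arrays. IL12A (0.22), IL12B (0.02) and IL31 (-0.23) were not called, but IL31 passed without mutant replicate 3 (-0.38, adjusted p = 0.0270).

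The IL-10 family, which acts on epithelium through IL-20 and IL-22, had 0 of 6 called by limma and 0 at an unadjusted p under 0.05, with changes of -0.11 (IL10) to 0.04 (IL22). All 6 means lay between 3.27 and 4.96, and 9.52% of all genes with a mean log2 under 7 were called. The IL-17 family also had 0 of 6 called and 0 at an unadjusted p under 0.05. Of these 6, 3 had a mean log2 under 7 and 3 at least 7, where 9.52% and 36.5% of all genes were called. IL17B read 7.47, 7.46 and 7.53 in mutant arrays, against 7.45, 7.40 and 7.28 in parental arrays, without overlap (difference 0.11, adjusted p = 0.292). IL17C, an epithelial cytokine, read 7.88, 7.80 and 8.08 in mutant arrays, against 8.11, 8.05 and 7.79 in parental arrays, with overlap. IL17D read 7.87, 7.77 and 7.92 in mutant arrays, against 7.97, 7.91 and 7.89 in parental arrays, and these overlapped as well. IL17A passed without parental replicate 3 (-0.30, adjusted p = 0.0480), against an adjusted p of 0.677 on all arrays, where its groups overlapped; IL17F (-0.07) and IL25 (0.15) were not called.

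Most members were dim. A mean log2 under 7 was found for 62 of 74 members, or 83.8%, against 39.1% of all genes. Of these 62 dim members 3 were called, or 4.84%, where 9.52% of all dim genes were. Of the 12 brighter members 2 were called, or 16.7%, where 36.5% of bright genes were. The arrays of the lines did not overlap for 13 members, 7 higher and 6 lower in the mutant, where 45.8% of all genes were apart, 25.3% higher and 20.5% lower. A low value does not show that a gene is silent, since no detection call is given.

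The 69 members that were not called had changes of -0.32 to 0.38, and 5 of them had an unadjusted limma p under 0.05. Of all 18417 genes, called or not, 7106 had such a p. For 64 of the 69 the 95% interval lay within 1.5-fold either way. Of these 64, 54 had a mean log2 under 7, where RMA compresses differences, so their changes may be understated. For the remaining 5 (CCL4, CXCL13, IL6, IL7 and IL15) a change of that size is inside the interval. The 10 uncalled members with a mean log2 of at least 7 had intervals within 0.33 of no change.

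**Figure D3:**
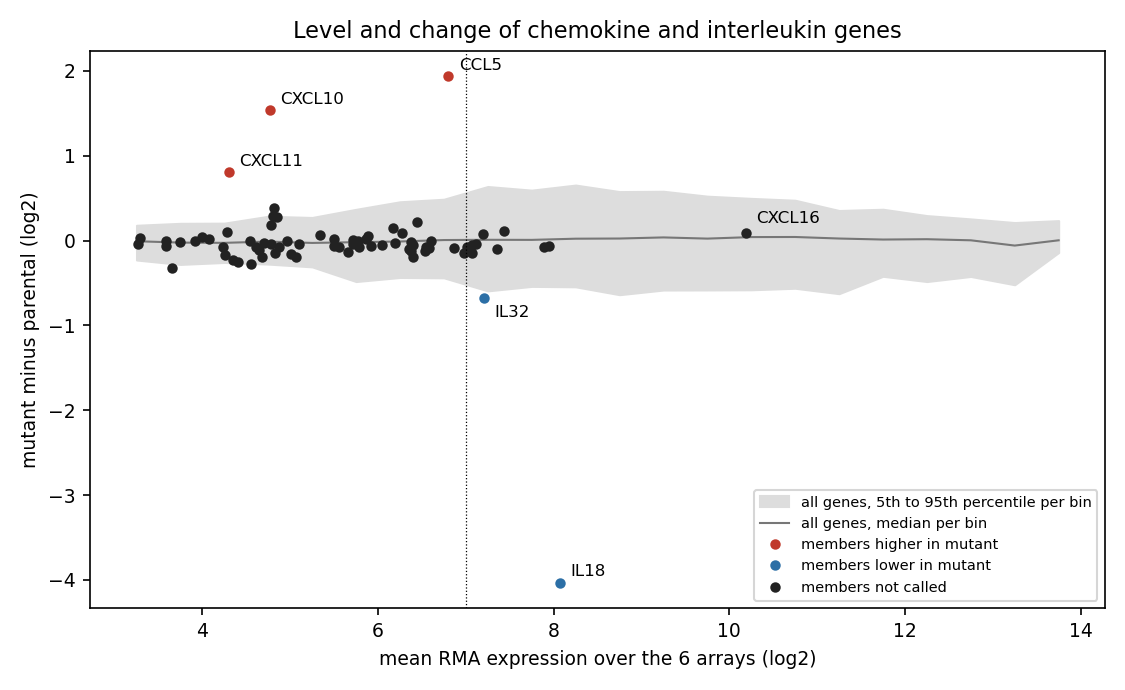
Mean expression over the 6 arrays (log2, horizontal axis) against the mutant minus parental difference (log2, vertical axis); dots are the 74 members, the grey band holds the 5th to 95th percentile of all genes in each half-unit bin of expression, and the dotted line marks a mean of 7. The uncalled members (black) sit mostly left of the line and close to 0, whereas CCL5, CXCL10 and CXCL11 lie above the band and IL18 and IL32 below it.

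The receptors and signalling genes of these ligands, with other cytokines, were read from lists of 115 measured genes in all. Of these, 18 were higher and 7 lower in the mutant, where 14.6% of all genes were called higher and 11.3% lower. The higher count was 11 without mutant replicate 2 and 11 without parental replicate 2. Among 21 measured chemokine receptors 1 rose and 1 fell, 9.52% of the list against 25.9% of all genes, with a median change of 0.00. Of these 21, 20 had a mean log2 under 7, and 9.52% of all such dim genes were called. These were CX3CR1, the receptor of CX3CL1 (0.29, adjusted p = 0.0455), and the scavenging receptor ACKR4 (-0.25, adjusted p = 0.0299). When each array was left out in turn, both calls held only without mutant replicate 3. Without any of the other 5 arrays, the adjusted p was 0.0703 to 0.136 for CX3CR1 and 0.0584 to 0.101 for ACKR4. CXCR4, the receptor of CXCL12, named after its values were seen, read 6.02, 6.12 and 6.55 in mutant arrays, against 5.92, 5.24 and 5.46 in parental arrays, without overlap. Its difference of 0.69 ± 0.21 (log2 ± SE) did not pass (adjusted p = 0.0759), but did without parental replicate 1 (0.88, adjusted p = 0.0367) and over probe sets with 1 symbol (adjusted p = 0.0299).

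Among 39 interleukin receptors 5 rose and 3 fell, 20.5% of the list against 25.9% of all genes, with a median change of -0.01. IL7R, the receptor chain for IL-7 and TSLP, read 6.91, 6.89 and 7.01 in mutant arrays, against 5.14, 5.22 and 5.29 in parental arrays. This rise of 1.72 ± 0.06 (log2 ± SE; adjusted p = 4.45e-05) was the largest of the list. IL17RB, a receptor for IL-25 and IL-17B, rose by 0.65 (adjusted p = 0.00343) and the IL-1 receptor IL1R1 by 0.48 (adjusted p = 0.00219). IL20RB, a chain of receptors for IL-19, IL-20 and IL-24, fell by 0.67 on the log2 scale, IL6ST, the shared gp130 chain, fell by 0.43 and IL17RD fell by 0.30. IL15RA, which presents IL-15, was named after its values were seen and rose by 0.34 (adjusted p = 0.0177). Its call was lost without mutant replicate 2 or 3 or parental replicate 2 or 3 (adjusted p of 0.0584 to 0.0680).

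Of 19 measured genes of IL-1 family processing and signalling 5 rose and 1 fell, with a median change of 0.01. The 31.6% of this list that was called is near the 25.9% of all genes. CASP4, a caspase that senses cytosolic lipopolysaccharide and can cleave the IL-18 precursor in human cells, read 4.40, 4.81 and 4.56 in mutant arrays, against 7.47, 7.60 and 7.83 in parental arrays. Its change of -3.05 ± 0.14 (adjusted p = 8.32e-05) was in the same direction as that of IL18, where 11.3% of all genes were called lower. A link between these changes was not tested. IRAK3, an inhibitory kinase homologue of the pathway, rose by 1.62, the adaptor MYD88 by 0.77 and the kinase IRAK2 by 0.42. The call of IRAK2 was lost without mutant replicate 2 or any parental replicate (adjusted p of 0.0597 to 0.0724). Other IL-18 partners, looked up after the IL18 values were seen, were not called: the receptor chains IL18R1 (0.22, adjusted p = 0.278) and IL18RAP (0.10, adjusted p = 0.617), the binding protein IL18BP (0.06, adjusted p = 0.545) and CASP1 (-0.05, adjusted p = 0.833). All of these partners had a mean log2 under 7, and 9.52% of all genes that dim were called. CASP1 was the dimmest of them, at 3.66 ± 0.16 in mutant arrays and 3.71 ± 0.19 in parental arrays.

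Of 18 measured genes of the NF-kB system 4 rose and 1 fell, 27.8% of the list against 25.9% of all genes, with a median change of 0.04. Of these 18, 17 had a mean log2 of at least 7, and 36.5% of all genes that bright were called. TNFAIP3 and NFKBIA, both inhibitors, rose by 0.85 (limma adjusted p = 0.00851) and 0.65 (adjusted p = 0.00316). The subunit gene RELB rose by 0.44 (adjusted p = 0.0204). NFKB1 rose by 0.41 (adjusted p = 0.00571, and 0.289 in the test against a fold of 1.2). Of the 18, 13 were not called, and NF-kB activity was not tested. The call of RELB was lost without mutant replicate 1 or 3 or parental replicate 2 or 3 (adjusted p of 0.0518 to 0.0588). NFKBIB, another inhibitor, read 9.33, 9.40 and 9.33 in mutant arrays, against 10.45, 10.54 and 10.66 in parental arrays, a change of -1.20 (adjusted p = 0.000185). Of 18 measured cytokines outside the symbol rule 3 rose and 1 fell, or 22.2% against the same 25.9%. LIF, a cytokine of the IL-6 family, read 7.21, 7.01 and 6.91 in mutant arrays, against 9.08, 9.10 and 9.23 in parental arrays, a change of -2.10 ± 0.09 (adjusted p = 8.07e-05). CSF1, a macrophage growth factor, rose by 0.41 and TGFB1 by 0.29; IFNL3, an interferon lambda gene with near-identical copies that can share probes, rose by 0.24 (adjusted p = 0.0465), a call lost on leaving out any array (adjusted p of 0.0513 to 0.129).

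**Figure D4:**
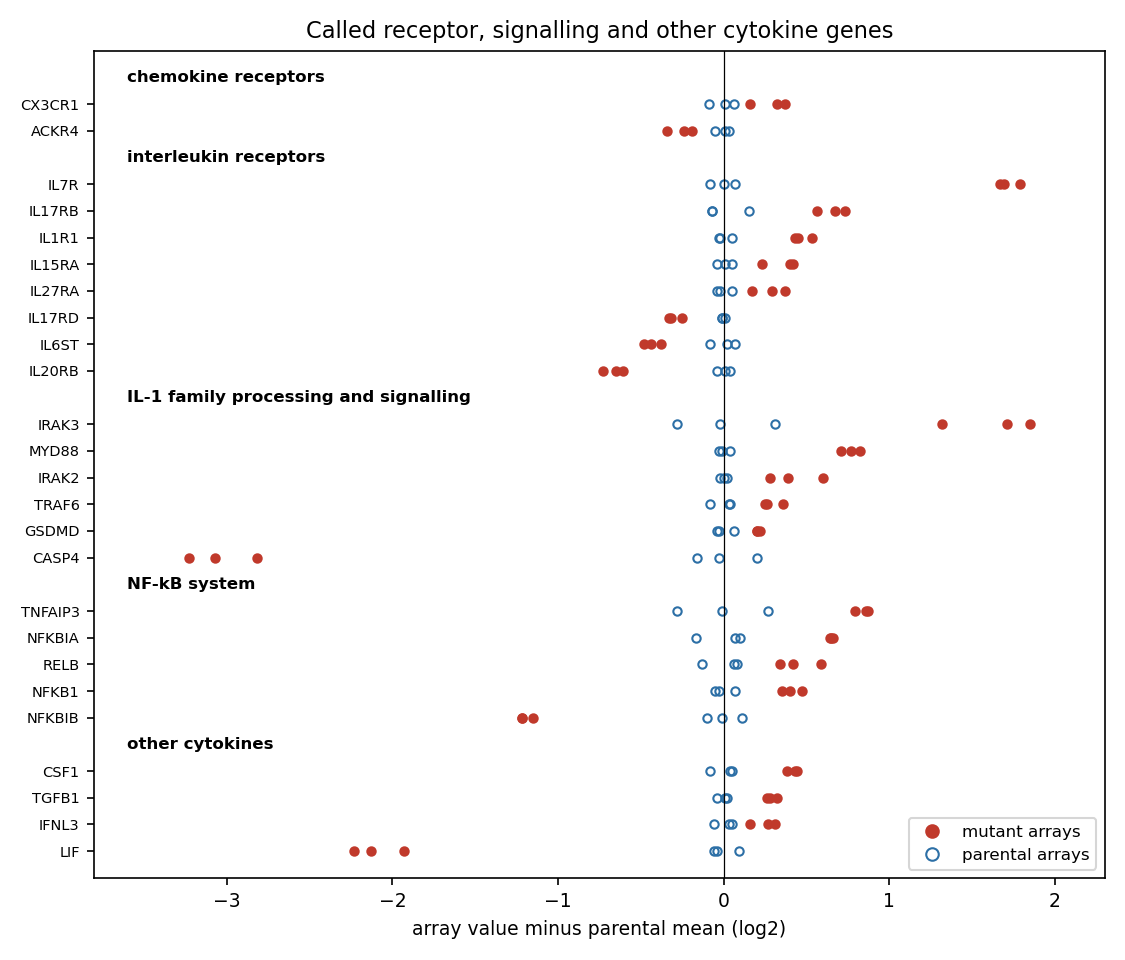
Array values minus the parental mean (log2, horizontal axis) of the called receptor, signalling and other cytokine genes, with mutant arrays as filled red dots and parental arrays as open blue dots. Parental dots lie around 0, CASP4 and LIF stand furthest left, and IL7R and IRAK3 furthest right.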

How the data were processed

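Gene expression of 6 arrays (3 mutant, 3 parental HCT116) was measured on Affymetrix-labelled total RNA (100 ng, per the labels' protocols). The deposited values are log2 expression per probe set, made by the authors with RMA; the submitters' processing notes also list Partek, with no version or order for either. They were used as deposited. For arrays, their number limits the precision. Of 33297 probe sets, 19460 have 1 symbol in the platform annotation, 1754 have several and 12083 none; 558 rows repeat an earlier row and all were tested. Gene IDs of all 74 members matched the RefSeq table of GRCh38.p14, which gave chromosomes, gene order and promoter sequence.

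Mutant minus parental differences were fitted with limma 3.58.1 (lmFit, eBayes, two-sided, 4 residual and 2.16 prior degrees of freedom) in R 4.3.3, adjusted by Benjamini-Hochberg over all probe sets and called at 0.05. The fit was tested on simulated data. Python 3.11.15 with pandas 2.3.3, numpy 2.4.6 and matplotlib 3.10.9 served for the rest.

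Members and lists were chosen with earlier results of these data known. Named with values were all called members and those with a mean log2 of at least 7, and up to 3 called genes per list and direction; other genes are given as examples. The 17 alternatives covered normalization, filters on dim probe sets, variance models, weights per array, a block for the replicate number, a minimum fold of 1.2, each array left out, and other choices of probe sets.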

Additional observations from a re-analysis of the deposited data

How the results depend on the processing

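The calls of CCL5, CXCL10, CXCL11, IL18 and IL32 kept their direction and passed in every alternative in which they were tested; CXCL10 and CXCL11 are not tested with a mean log2 of at least 5, nor CCL5 with a mean of at least 7. Their adjusted p-values ran up to 0.00206, 0.0155, 0.0141, 0.00138 and 0.0150. Those filters therefore left 1 and 0 members higher, by construction. Testing fewer probe sets (those with 1 symbol, or gene means) called 5 members lower in place of 2, the added genes being CXCL1, CXCL12 and IL4. Leaving out each array gave 3 to 4 members higher and 2 to 3 lower. It gave 2168 to 2586 probe sets higher, 1720 to 2046 genes higher and 11 to 14 list genes higher, against 3447, 2685 and 18. The test against a fold of 1.2, stricter by construction, left 840 probe sets higher and 903 lower, 686 genes higher and 756 lower, and 5 list genes higher and 4 lower. Of 22 called list genes named, 9 kept their calls in every alternative that tested them, 13 lost them in at least 1 and 0 reversed; the cause was not tested.

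Mutant and parental arrays share replicate numbers, but same-numbered arrays did not deviate together (correlations of -0.013 to 0.043). With the replicate block 3 members were higher and 2 lower, and 2352 probe sets higher and 2013 lower. Gene means give no count of probe sets.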
